A study of Mus musculus with 15 samples.

Results

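The 10 genes described here act in the making of triglyceride and the handling of glycerol in fat cells, and were chosen by name as Gpd1, Pck1, Aqp7, Gpam, Agpat2, Agpat3, Lpin1, Lpin2, Dgat1 and Dgat2. They are 10 of the 18804 genes in the count table, and all 10 were among the 14293 that passed the filter on low counts. RNA was sequenced from white adipocytes of C57BL/6J mice, differentiated in culture from primary mesenchymal stem cells of the ear and harvested on day 16 of differentiation. Cells of the day 0 group stayed at 37°C, cells of the day 1 group were moved to 31°C for the last day, and cells of the day 12 group spent the last 12 days at 31°C, with 5 libraries in each group. All groups received the same induction mix. The paper lists methylisobutylxanthine, dexamethasone and insulin in it, with rosiglitazone or troglitazone, as its accounts differ. The day 12 group was still differentiating when it was moved. Time at 31°C and the stage at which it began can therefore not be told apart. The sources do not say if replicates stand for different animals or different dishes, so p-values rest on the spread between these libraries, which may be technical.

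Triglyceride is built on a backbone of glycerol-3-phosphate, to which fatty acids are added in turn. Acyltransferases make lysophosphatidate and then phosphatidate, phosphatases of the lipin family remove the phosphate to give diacylglycerol, and diacylglycerol acyltransferases add the last fatty acid. Fat cells make glycerol-3-phosphate from glucose or, through glyceroneogenesis, from smaller precursors, and release glycerol through a channel when stored fat is broken down.

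Promoter sequences are shown for Agpat2 and Lpin1, the members with the largest rise and the largest fall, and for Pck1, whose promoter is a textbook target of cyclic AMP signalling. RefSeq promoter windows on GRCm38.p6, the build also called mm10, were matched for 7 of the 10 genes (Pck1, Aqp7, Gpam, Agpat2, Agpat3, Lpin1 and Lpin2). Each run below is the 250 bases before the annotated start, 5′ to 3′ on the strand of the gene, from chr2:26604418-26604667 on the minus strand for Agpat2, chr12:16610967-16611216 on the minus strand for Lpin1 and chr2:173152823-173153072 on the plus strand for Pck1. Capitals mark matches, on either strand, to the letters given after the sequences.
Agpat2: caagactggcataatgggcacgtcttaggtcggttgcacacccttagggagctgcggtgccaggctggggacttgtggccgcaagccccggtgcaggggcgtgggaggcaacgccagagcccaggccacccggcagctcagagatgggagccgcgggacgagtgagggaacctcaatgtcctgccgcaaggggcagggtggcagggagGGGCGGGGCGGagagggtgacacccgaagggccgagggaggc
Lpin1: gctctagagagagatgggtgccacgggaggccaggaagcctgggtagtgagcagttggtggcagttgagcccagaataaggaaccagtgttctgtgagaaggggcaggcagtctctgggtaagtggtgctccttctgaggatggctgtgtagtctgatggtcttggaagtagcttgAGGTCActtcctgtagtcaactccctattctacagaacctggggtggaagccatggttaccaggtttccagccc
Pck1: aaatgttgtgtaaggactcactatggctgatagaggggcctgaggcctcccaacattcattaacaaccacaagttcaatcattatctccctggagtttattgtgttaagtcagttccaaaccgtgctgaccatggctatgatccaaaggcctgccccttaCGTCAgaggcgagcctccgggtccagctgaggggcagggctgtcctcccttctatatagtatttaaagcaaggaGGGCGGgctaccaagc

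The letters searched on both strands were TGACG (the half-site of the cyclic AMP response element), TGACGTCA (the whole element, which contains the half-site), AGGTCA (the nuclear receptor half-site), CACGTG (the E-box), GGGCGG (the GC box) and TATAAA (the TATA box). Agpat2 held 2 overlapping GC boxes, which began 42 and 37 bases before the start, and GGGCGG was found in 32.7% of the 32851 windows of the same length. In Lpin1 a single nuclear receptor half-site began 74 bases before the start, and AGGTCA was found in 14% of windows. Pck1 held the half-site TGACG, read on the opposite strand, 90 bases before the start and a GC box 16 bases before it, and TGACG was found in 17.8% of windows. TGACGTCA, CACGTG and TATAAA were in 1.55%, 6.02% and 12.4% of windows and were not among the letters of these 3 runs. A match describes the letters of the window and does not show that a factor binds there.

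Levels are given as CPM, counts scaled by TMM to a common library size, and a gene was called higher or lower where its adjusted p in edgeR's quasi-likelihood test, with Benjamini-Hochberg adjustment over all 14293 genes tested, was under 0.05 and its fold change was over 1.5. After 1 day at 31°C, 2 members were higher (Agpat2 and Dgat1) and 1 was lower (Pck1), against 21.1% of all tested genes called in either direction, 7.71% higher and 13.4% lower. After 12 days, 2 were higher (Agpat2 and Dgat1) and 3 were lower (Pck1, Lpin1 and Dgat2), where 29.2% of all genes were called, 13% higher and 16.2% lower. Between day 1 and day 12, Agpat2 was higher and Lpin1, Lpin2 and Dgat2 were lower, where 19.1% of genes were called, 10.6% higher and 8.53% lower. The median log2 fold change of the members was 0.19, -0.28 and -0.20 in these comparisons, beside -0.01, 0.01 and 0.01 over all genes. Without regard to sign the medians were 0.37, 0.59 and 0.43 for the members and 0.30, 0.35 and 0.25 for all genes. By the adjusted p alone, 6 members were higher and 3 lower at day 1 (all genes: 71.5% in either direction, 35.3% higher and 36.2% lower), 3 and 6 at day 12 (76.6%, 39.2% and 37.4%) and 2 and 6 from day 1 to day 12 (67.2%, 34.3% and 32.8%). The 5 values of each group did not overlap for 8, 7 and 7 of the members, while 57.4%, 64.6% and 52.5% of all genes had groups that did not overlap. The comparisons with day 0 share its 5 libraries and are given side by side.

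**Figure D1:**
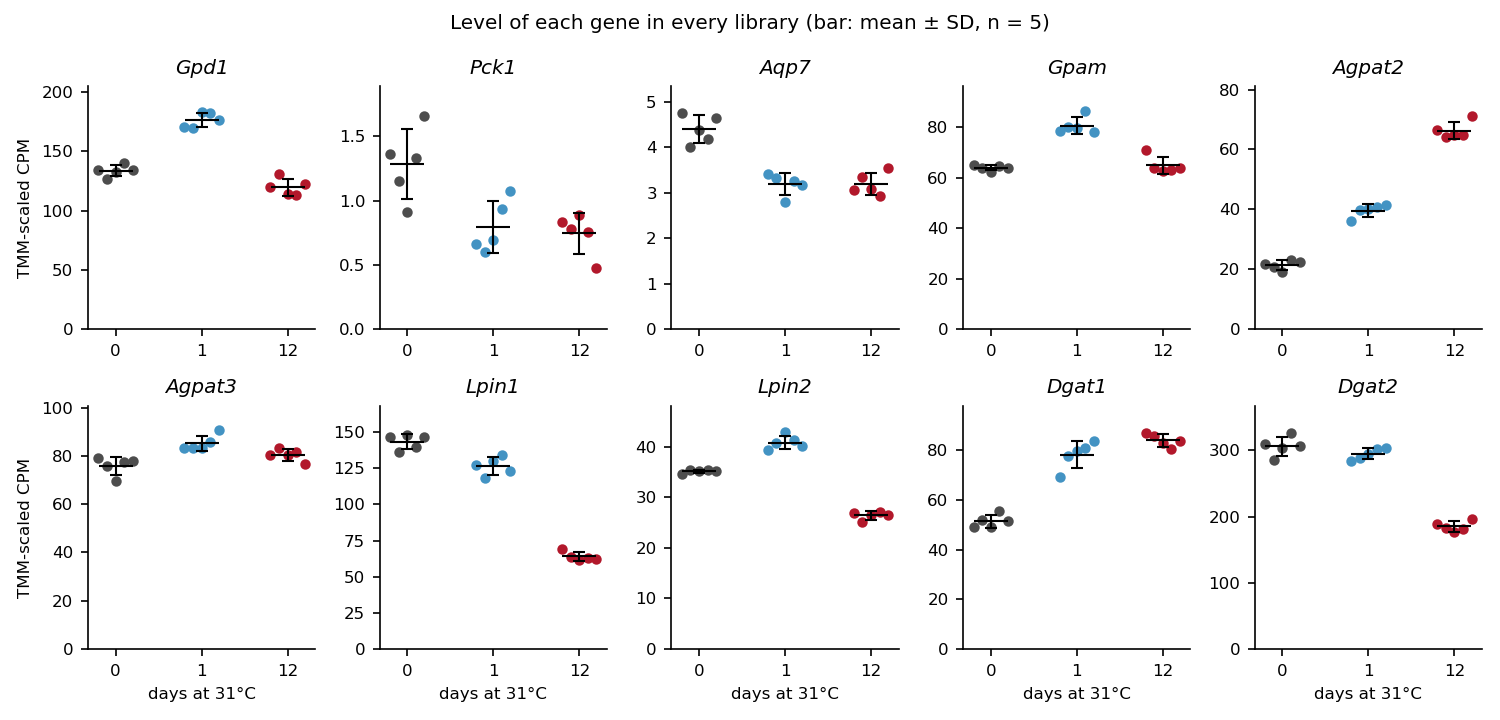
Level of each of the 10 genes in every library, in TMM-scaled CPM on a linear axis from 0, by days at 31°C; points are libraries and bars are the mean and SD of 5. Agpat2 climbs over both intervals from a mean of 21.4 to 66.3 CPM, while the day 12 points of Lpin1 and Dgat2 lie below all points of the other groups.

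**Figure D2:**
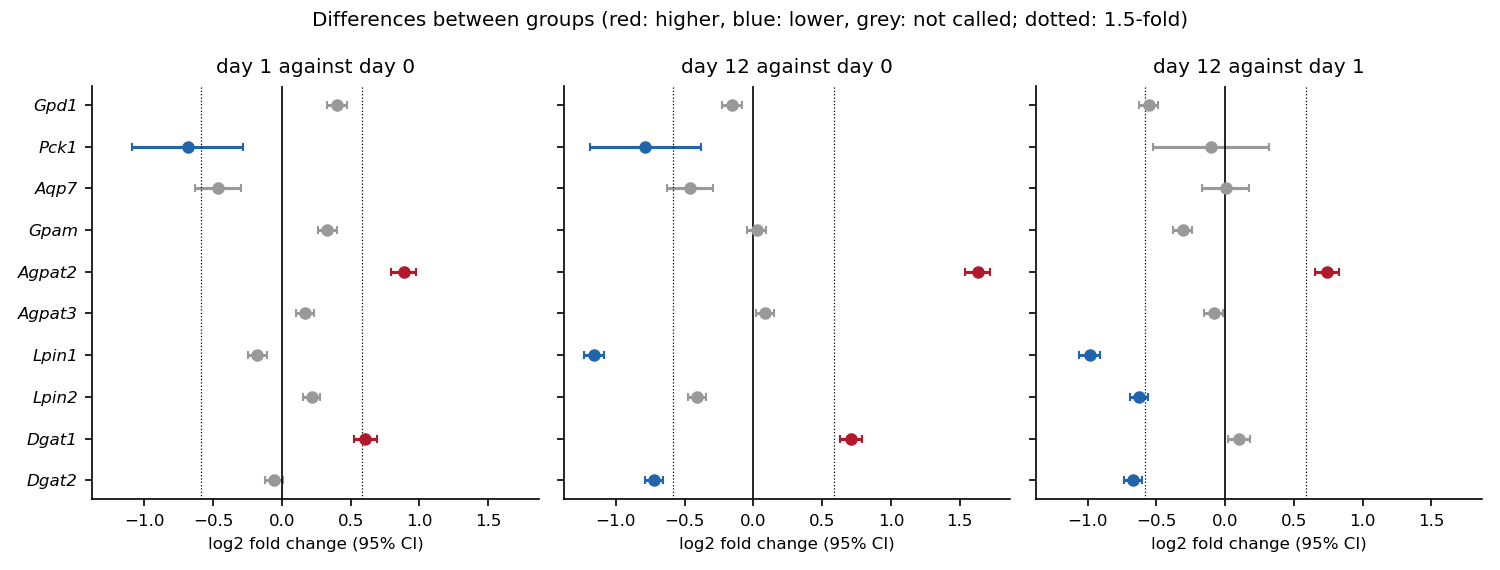
Log2 fold change of each gene in the 3 comparisons with 95% intervals; red and blue mark genes called higher and lower, and dotted lines mark a 1.5-fold change. Agpat2 is called higher in all 3 panels and Lpin1 reaches -1.16 at day 12 against day 0.

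Libraries held 92.4 to 133 M counts (M, mega) at day 0, 74.4 to 105 M at day 1 and 64.6 to 91.3 M at day 12, and the common coefficient of variation between replicates was 5.25%. The summed level of 10 adipocyte markers was 5710 to 6330 CPM at day 0, 6860 to 7380 at day 1 and 5480 to 6090 at day 12. Adipoq was at 1095 ± 41.4, 1126 ± 33.5 and 464 ± 9.71 CPM (SD, n = 5), Fabp4 at 828 ± 66, 1399 ± 62.3 and 1617 ± 75.5, and 1 of the 10 had a mean below 1 CPM in each group. Of the others Cidec had a mean of 176.8, 28.85 and 58.97 CPM. Pparg was at 118.7, 95.87 and 78.63 and Lpl at 1953, 2344 and 2113, so the adipocyte list did not move as a whole. The sum of 5 proliferation markers was 48.8 to 59.7 CPM at day 0, 57.3 to 68.1 at day 1 and 146 to 175 at day 12, and that of 5 mesothelial markers was 2.06 to 2.25, 1.79 to 2.15 and 23.4 to 38.3 CPM, with Msln at 29.3 of it at day 12. All 8 stromal markers together gave 7220 to 7810, 6760 to 6900 and 6200 to 6450 CPM, most of it from Dcn at a mean of 5984, 5323 and 5043. The other stromal markers did not all go the same way, as Ly6a had a mean of 591, 534 and 221 CPM, Pdgfra of 562, 661 and 712 and Pdgfrb of 131, 114 and 184. The part of these shifts in the day 12 results was not tested. In these bulk samples fewer cells of a type and less RNA per cell cannot be told apart.

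The supply of glycerol-3-phosphate is represented by Gpd1 and Pck1, and the passage of glycerol by Aqp7. Gpd1, the cytosolic dehydrogenase that makes glycerol-3-phosphate from a glycolytic intermediate (chr15:99717515-99725005), had levels of 134, 127, 133, 140.1 and 134 CPM at day 0, 171, 169.7, 183, 182 and 176 at day 1 and 119.8, 130.5, 114, 113 and 122 at day 12. Every day 1 value was above every value of the other groups, which overlapped each other. The log2 fold change was 0.40 at day 1 (SE 0.04, adjusted p = 5.21e-10) and -0.16 at day 12 (SE 0.04, adjusted p = 0.000406), neither past the 1.5-fold limit. From day 1 to day 12 it was -0.56 (SE 0.04, adjusted p = 1.68e-12), also short of the limit, although it was called at -0.59 without day 12 replicate 2. Of the exon bases of Gpd1, 13.4% lie within Gm16537 on the opposite strand, and since the strand setting of the counting was not given, reads of the pair may not be separated.

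Pck1, the cytosolic phosphoenolpyruvate carboxykinase of glyceroneogenesis (chr2:173153048-173159273), was the least abundant member and was counted 43 to 172 times per library. Its level was 1.36, 1.15, 0.915, 1.33 and 1.66 CPM at day 0, 0.666, 0.597, 0.696, 0.935 and 1.08 at day 1 and 0.832, 0.782, 0.886, 0.756 and 0.476 at day 12. All 5 day 12 values were below the lowest day 0 value, whereas 2 of the day 1 values lay within the day 0 range. Pck1 was lower by -0.68 on the log2 scale after 1 day (SE 0.20, adjusted p = 0.00476) and by -0.79 after 12 days (SE 0.21, adjusted p = 0.00143). Hprt, Tbp, Gapdh and B2m are part of a larger reference set that the study used for qPCR of Scd1 across temperatures. On the TMM scale B2m and Gapdh were themselves called lower at day 12 against day 0. Scaling to these 4 qPCR reference genes turned the sign of the 12 day value of Pck1, to a log2 fold change of 0.05 with adjusted p = 0.807 in edgeR. The day 1 call was lost without day 0 replicate 5, at -0.58 with adjusted p = 0.0202, and the day 12 value was -0.55 and not called within the larger run of library numbers. The difference between day 1 and day 12 was -0.10 (SE 0.22, adjusted p = 0.693). The mitochondrial form Pck2 had a mean of 42.7, 34.6 and 42.3 CPM, so that Pck1 held 4.97% ± 1.1, 3.81% ± 0.77 and 2.98% ± 0.67 (SD, n = 5) of the counts per kilobase of both.

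Aqp7, the glycerol channel of fat cells (chr4:41033074-41048139), was measured at 4.00 to 4.76 CPM at day 0, 2.81 to 3.41 at day 1 and 2.92 to 3.54 at day 12. Neither 31°C group overlapped the day 0 group. The log2 fold change was -0.46 at day 1 (SE 0.08, adjusted p = 3.2e-05) and -0.46 at day 12 (SE 0.08, adjusted p = 2.82e-05), short of the fold limit in both. Between day 1 and day 12 the difference was 0.00, with an interval of -0.17 to 0.17. With the 4 qPCR reference genes the sign at day 12 against day 0 turned, to 0.38. Against day 1 Aqp7 was then called higher, at 0.79.

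The first acylation is carried out by Gpam, the acyltransferase of the mitochondrial outer membrane (chr19:55067268-55127238). Gpam was at 62.3 to 65.1 CPM at day 0, 78.1 to 86.4 at day 1 and 62.9 to 71.1 at day 12, and the day 1 values lay above all others. The log2 fold change was 0.33 at day 1 (SE 0.03, adjusted p = 6.74e-09), 0.02 at day 12 (SE 0.03, adjusted p = 0.572) and -0.31 from day 1 to day 12 (SE 0.03, adjusted p = 2.85e-08), and none passed the fold limit. With the 4 qPCR reference genes Gpam was called higher at day 12, at 0.86 on the log2 scale. Gpam held 36.6% ± 0.19, 37.4% ± 1 and 33.8% ± 0.93 of the counts per kilobase of the 4 glycerol-3-phosphate acyltransferases, below Gpat4 at 50.9%, 49.3% and 54.8%.

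Agpat2, which turns lysophosphatidate into phosphatidate and whose loss causes congenital lipodystrophy in people (chr2:26593057-26604417), had the widest range of the members. It was at 21.8, 20.7, 19.2, 23.1 and 22.4 CPM at day 0, 36.1, 39.7, 40.2, 40.65 and 41.4 at day 1 and 66.5, 64.2, 64.8, 64.7 and 71.2 at day 12. The groups did not overlap and lay in the order of days at 31°C. Agpat2 rose 1.85-fold at day 1 (log2 fold change 0.89, SE 0.05, adjusted p = 2.08e-14) and 3.09-fold at day 12 (1.63, SE 0.05, adjusted p = 8.95e-20). The further rise from day 1 to day 12 was 1.67-fold (0.74, SE 0.04, adjusted p = 3.72e-13). Its promoter letters are the first run printed above.

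Agpat3, another lysophosphatidate acyltransferase (chr10:78269178-78352489), was at 69.8 to 79.1 CPM at day 0, 83.3 to 90.5 at day 1 and 76.7 to 83.3 at day 12. Its log2 fold changes were 0.17 (SE 0.03, adjusted p = 0.00011), 0.08 (SE 0.03, adjusted p = 0.0286) and -0.08 (SE 0.03, adjusted p = 0.0329), none past the fold limit. With the 4 qPCR reference genes Agpat3 was called higher at day 12, at 0.92 against day 0 and 0.70 against day 1. Among Agpat1 to Agpat5, Agpat2 took 17.3% ± 0.58 of the counts per kilobase in the day 0 group, then 31.5% ± 1.2 and 45.5% ± 1.5 after 1 and 12 days (SD, n = 5). Agpat1, which was the leading form at day 0 with 38.9% ± 0.63, held 25.8% ± 0.88 and 23.5% ± 1.1. Agpat4 held 26.5%, 24.1% and 16.4%, and Agpat3 13.6%, 15% and 12.2%.

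The dephosphorylation of phosphatidate is represented by Lpin1 and Lpin2. Lpin1, a phosphatidate phosphatase needed for fat tissue to form (chr12:16535669-16610966), was at 146, 136, 148, 139.7 and 146 CPM at day 0, 127, 118, 130.1, 134 and 123 at day 1 and 69.3, 63.5, 61.8, 62.9 and 62.3 at day 12. All day 12 values were far below the others, and the day 1 values lay just below the day 0 values. Lpin1 was lower by -1.16 on the log2 scale after 12 days (SE 0.04, adjusted p = 6.38e-19), or 2.24-fold, and by -0.98 between day 1 and day 12 (SE 0.04, adjusted p = 4.25e-17). At day 1 the value was -0.18 (SE 0.04, adjusted p = 9.23e-05), short of the fold limit. Both calls of Lpin1 were lost when scaled to the 4 qPCR reference genes, with log2 fold changes of -0.32 against day 0 and -0.19 against day 1.

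Lpin2, a second phosphatidate phosphatase of the family (chr17:71182560-71249817), was at 34.5, 35.4, 35.1, 35.3 and 35.2 CPM at day 0, 39.3, 40.6, 42.8, 41.2 and 40.05 at day 1 and 27, 25, 26.6, 27 and 26.4 at day 12. The 3 groups did not overlap, with day 1 highest and day 12 lowest. Lpin2 fell by -0.63 from day 1 to day 12 on the log2 scale (SE 0.03, adjusted p = 1.97e-14). This call was lost with total counts (log2 fold change -0.46) and with Hprt, Tbp and Ppia (-0.47), and the sign turned with the 4 qPCR reference genes, to a log2 fold change of 0.16. Its values against day 0 were 0.22 at day 1 (SE 0.03, adjusted p = 1.45e-06) and -0.41 at day 12 (SE 0.03, adjusted p = 2.94e-11), within the fold limit. Lpin1 supplied 64.6% ± 0.58, 62.2% ± 1 and 54.7% ± 1.9 of the counts per kilobase of the 3 lipins, and Lpin2 15.6% ± 0.58, 19.8% ± 0.71 and 22.3% ± 0.39.

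The last fatty acid is added by Dgat1 or Dgat2, enzymes of unrelated protein families. Dgat1 (chr15:76502015-76511953) was at 49.2, 51.8, 48.9, 55.3 and 51.3 CPM at day 0, 69.2, 77.4, 79.4, 80.9 and 83.5 at day 1 and 86.9, 85.5, 82.9, 80.4 and 83.5 at day 12. Both 31°C groups lay above the day 0 group and overlapped each other. Dgat1 rose 1.52-fold at day 1 (log2 fold change 0.61, SE 0.04, adjusted p = 4.22e-12) and 1.63-fold at day 12 (0.71, SE 0.04, adjusted p = 1.31e-13). The day 1 value sits at the fold limit and was not called at 0.58 without day 1 replicate 5, at 0.56 within the larger run of library numbers or at 0.51 when scaled to Hprt, Tbp and Ppia. From day 1 to day 12 the difference was 0.10 (SE 0.04, adjusted p = 0.0333).

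Dgat2 (chr7:99153658-99182719), which also acts at the surface of lipid droplets, was the most abundant member in every group. It was at 309, 286, 304, 326.5 and 306.5 CPM at day 0, 284.5, 288.5, 295, 302 and 304 at day 1 and 189, 183, 176, 181 and 197 at day 12. The day 0 and day 1 values overlapped and all day 12 values were lower. Dgat2 fell 1.65-fold at day 12 against day 0 (log2 fold change -0.73, SE 0.03, adjusted p = 1.29e-15) and 1.59-fold against day 1 (-0.67, SE 0.03, adjusted p = 1.38e-14). With the 4 qPCR reference genes the sign turned, to a log2 fold change of 0.12 in both. With total counts alone these values were -0.53 and -0.50, and with Hprt, Tbp and Ppia the value against day 1 was -0.52, all under the fold limit. At day 1 the log2 fold change was -0.06 (SE 0.03, adjusted p = 0.141), with an interval of -0.12 to 0.01.

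A scaling moves all genes of a library alike, so the direction at day 12 depends on the level taken as unchanged. Scaling to Hprt, Tbp, Gapdh and B2m moved the median log2 fold change of all genes to 0.85 at day 12 against day 0 and 0.80 against day 1, where B2m itself was at -2.12 and Gapdh at -0.70 against day 0 on the TMM scale. Total counts moved the median to 0.20 and 0.18, and scaling to Hprt, Tbp and Ppia to 0.07 and 0.16, with -0.11 at day 1. Relative to the median of all genes, each of the 10 members kept its value within 0.01 on the log2 scale across the 5 scalings compared, which follows from how a scaling works.

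The ratio of a pair of genes within a library does not depend on scaling. Counts per kilobase of Dgat1 over those of Dgat2 were 0.191, 0.217, 0.193, 0.203 and 0.2 at day 0, 0.291, 0.321, 0.323, 0.321 and 0.329 at day 1 and 0.551, 0.558, 0.564, 0.532 and 0.508 at day 12. The ratio climbed without overlap, by a log2 difference of 0.66 at day 1, 1.43 at day 12 and 0.78 between them. In an exact two-sided permutation test over 5 against 5 libraries each gave p = 0.00794, the smallest that these group sizes allow, or 0.00952 adjusted over the 12 tests made. Dgat1 thus made up 16.7% ± 0.72, 24.1% ± 0.87 and 35.2% ± 0.96 of the counts per kilobase of the pair (SD, n = 5). Among all single genes, groups did not overlap for 57.4%, 64.6% and 52.5% in the same comparisons. Ratios of pairs outside the 12 tests were not examined, so how often other pairs reach the smallest p is not known.

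Lpin1 over Lpin2 had a mean of 4.13 ± 0.175, 3.14 ± 0.144 and 2.45 ± 0.122 (SD, n = 5) in the order of days at 31°C. The log2 differences of -0.40, -0.75 and -0.36 had the same exact permutation p of 0.00794 and adjusted p of 0.00952. Agpat2 over Agpat3 stood at 1.28 ± 0.0507, 2.1 ± 0.0891 and 3.74 ± 0.279, with log2 differences of 0.72, 1.54 and 0.83 and the same exact permutation p of 0.00794 for each. For Pck1 over Gpd1 the ratio was 0.0103 ± 0.00213, 0.00483 ± 0.00118 and 0.00674 ± 0.00158. It was lower at day 1 by -1.10 on the log2 scale (exact permutation p = 0.00794, adjusted 0.00952) and at day 12 by -0.63 (exact permutation p = 0.0238, adjusted 0.026), where groups overlapped. The day 12 call against day 0 was lost, at an adjusted p of 0.0519 in the exact permutation test, without any 1 of day 0 replicates 1, 2, 4 and 5 or day 12 replicates 2 and 4, with values between -0.53 and -0.66. The difference of 0.47 between day 1 and day 12 did not pass (exact permutation p = 0.0794), and passed without day 1 replicate 5, at 0.59, or without day 12 replicate 5, at 0.63.

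**Figure D3:**
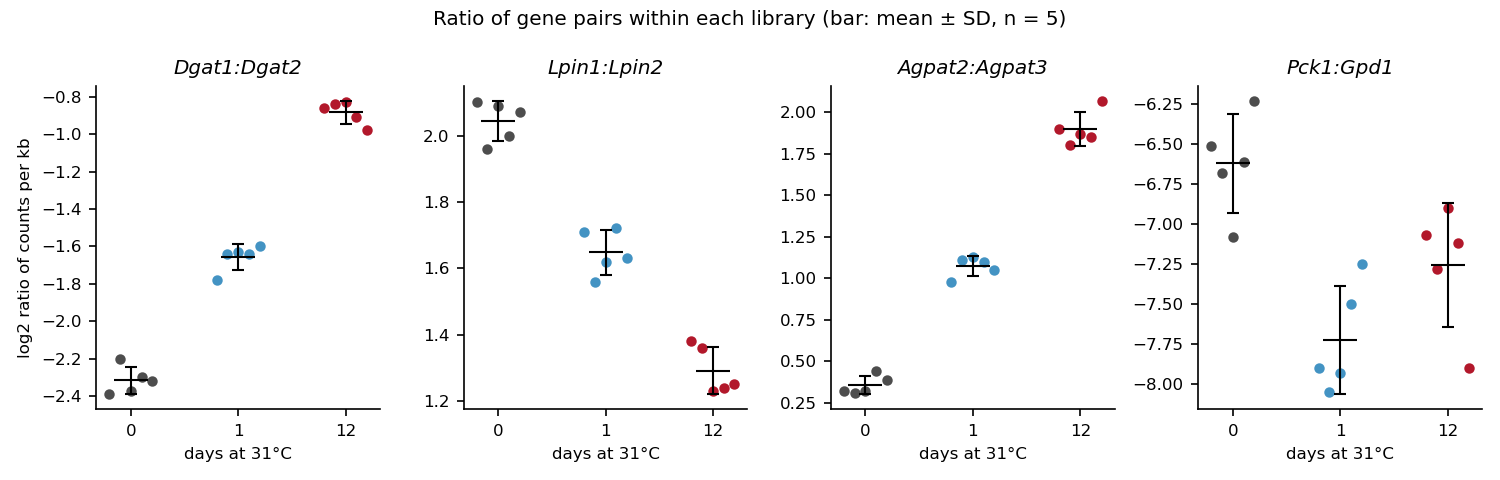
Log2 ratio of counts per kilobase of 4 gene pairs within each library by days at 31°C, with the mean and SD of 5 libraries; each panel has its own vertical range. The groups of the first 3 pairs are apart from each other at 0, 1 and 12 days, and those of Pck1 over Gpd1 overlap at day 12.

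**Figure D4:**
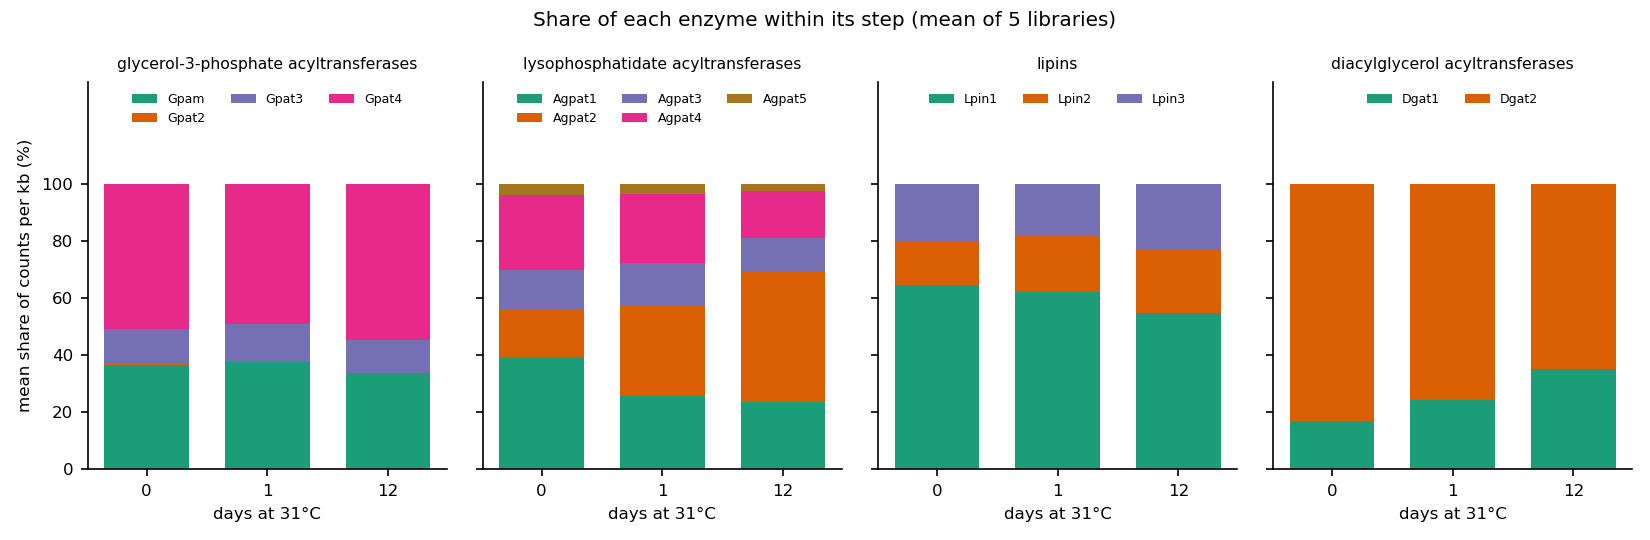
Mean share, in percent, of each enzyme in the counts per kilobase of its step at 0, 1 and 12 days at 31°C. The share of Agpat2 grows from 17.3% to 45.5% and that of Dgat1 from 16.7% to 35.2%.

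Per kilobase of exon (RPKM), Dgat2 stood highest in every group, at 135 ± 6.43, 130.3 ± 3.69 and 81.9 ± 3.52. At day 0 it was followed by Gpd1 at 46.7, Dgat1 at 27.2, Lpin1 at 23.1, Agpat2 at 14.4, Agpat3 at 11.2, Gpam at 10.1, Lpin2 at 5.60, Aqp7 at 1.72 and Pck1 at 0.483 RPKM, with no overlap between neighbours. At day 1 Agpat2, at 26.6 RPKM, had passed Lpin1, at 20.4, and only the neighbours Gpam and Agpat3 overlapped, at 12.7 and 12.6. By day 12 Agpat2 at 44.5, Dgat1 at 44.4 and Gpd1 at 41.9 RPKM overlapped as neighbours, just after Dgat2, and Lpin1 at 10.3 overlapped Gpam at 10.2.

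Other genes of the pathway were taken from 5 lists of 27 genes, of which 25 were in the table and 22 were tested. Against day 0, edgeR called 1 of them higher and 4 lower after 1 day, and 2 higher and 4 lower after 12 days. Over all tested genes 21.1% and 29.2% were called in these comparisons, so the share called in the lists was near the background. Between the 31°C groups 2 were higher in the longer exposure and 1 was lower, where 19.1% of all genes were called. None of the 6 tested acyltransferases of glycerol-3-phosphate and lysophosphatidate and none of the 6 other glycerol and glycerol-3-phosphate enzymes was called in edgeR's test in any comparison, with Agpat1 closest at -0.57 at day 1 (adjusted p = 1.55e-13). Among the phosphatases, Lpin3 fell by -0.71 on the log2 scale at day 12 (adjusted p = 1.91e-12), Plpp1 rose by 0.62 at day 1 (adjusted p = 4.44e-15) and Plpp2 by 0.64 at day 12 (adjusted p = 1.75e-14). The log2 fold change of Lpin3 was -0.52 and not called with total counts, and turned to 0.13 with the 4 qPCR reference genes. The call of Plpp1 was lost with Hprt, Tbp and Ppia, at 0.52, and with a filter at a mean of 10 CPM, at 0.57. Mtrex, on the other strand, covers 25.8% of the exon bases of Plpp1.

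Mogat1 and Mogat2, which acylate monoacylglycerol, went apart. Mogat1 was at 3.94, 4.13 and 0.854 CPM on average, a log2 fold change of -2.18 at day 12 against day 0 (adjusted p = 6.29e-13) and -2.26 against day 1 (adjusted p = 7.82e-13), and 15.4% of its exon bases lie within BC035947 on the opposite strand. Mogat2 was at 6.21, 3.70 and 9.40 CPM, lower by -0.75 at day 1 (adjusted p = 1.1e-07), higher by 0.60 at day 12 (adjusted p = 1.11e-06) and higher by 1.34 from day 1 to day 12 (adjusted p = 3.9e-12). The day 12 call of Mogat2 against day 0 was lost without day 0 replicate 2 (0.55) or 4 (0.58) or day 12 replicate 3 (0.56) or 4 (0.57). It was also lost when only the 2 groups compared were fitted (0.58). The remaining calls of these lists, in Awat2, Aqp3 and Aqp11, belong to genes with a mean below 1 CPM over all 15 libraries, although Aqp11 was at 1.51 CPM at day 0.

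Of 14 regulators of these genes, 4 were lower at day 1 and 4 at day 12, none was higher in edgeR's test against day 0, and 1 was higher and 1 lower from day 1 to day 12. Over all tested genes 13.4% were lower and 7.71% higher at day 1, 16.2% and 13% at day 12, and 8.53% and 10.6% from day 1 to day 12. Pparg, the nuclear receptor that directs fat cell formation, fell by -0.59 on the log2 scale at day 12 (adjusted p = 5.27e-14), a call lost without day 12 replicate 1 or 4, at -0.58 in both. Foxo1, a factor restrained by insulin, fell by -0.73 at day 12 (adjusted p = 7.12e-17), and Nr1h3, the oxysterol receptor LXRα, by -0.69 at day 1 and at day 12 (adjusted p = 6.04e-11 and 4.22e-11). The day 12 calls of all 3 against day 0 were lost with total counts, at log2 fold changes of -0.40 for Pparg, -0.53 for Foxo1 and -0.50 for Nr1h3. With the 4 qPCR reference genes their signs turned, to 0.25, 0.11 and 0.15. Pparg was also not called with Hprt, Tbp and Ppia, at -0.54. Creb1, which binds the cyclic AMP response element, fell by -0.83 at day 1 (adjusted p = 2.85e-14). At day 12 Creb1 was at -0.32 and not called. From day 1 to day 12 it rose by 0.52 (adjusted p = 2.93e-10), short of the fold limit. This rise was called at 0.69 with total counts, 0.67 with Hprt, Tbp and Ppia and 1.31 with the 4 qPCR reference genes. Ppara fell by -1.64 at day 1 (adjusted p = 6.18e-08) and rose by 1.21 from day 1 to day 12 (adjusted p = 1.05e-05), and the coactivator Ppargc1a fell by -1.50 at day 12 against day 0 (adjusted p = 8.94e-09) and by -1.03 against day 1 (adjusted p = 7.41e-06), where it was at -0.23 and not called with the 4 qPCR reference genes. The remaining call at day 1, Ppargc1b, was in a gene with a mean below 1 CPM over all 15 libraries.

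Likeness of pattern was measured as the root mean square difference of centred log2(CPM + 0.5) over the 15 libraries, among 8917 other genes that averaged 10 CPM or more, and a small value means a like course. For Agpat2 the 3 closest were Carns1 (0.12), Serpina3f (0.13) and 2310015A10Rik (0.14). Dgat2 was closest to Gadd45b (0.05), Dgat1 to Sepp1 (0.07), Lpin1 to Stxbp6 (0.07), Lpin2 to Tmem87b (0.04) and Gpd1 to Rxra (0.05). Gpam was closest to 4932415G12Rik (0.04), Agpat3 to Lass2 (0.03), Aqp7 to Hax1 (0.06) and Pck1 to Tmem129 (0.17). These values describe the 15 libraries and share their depth and grouping.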

How the data were processed

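RNA was sequenced from 15 libraries of cultured mouse adipocytes, 5 per group, and groups came from the labels. According to the submitters' processing notes the authors aligned reads with TopHat2 2.0.13 and Bowtie2 2.2.1 to mm10 and counted them with HTSeq. The deposited raw counts per gene were used as they stand. The authors' tables of regularized log2 values and of their own DESeq2 comparisons were not used. The strand setting of the counting is not given in the sources used here.

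Counts were filtered with filterByExpr of edgeR 4.0.16 at a minimum count of 10, leaving 14293 of 18804 genes, scaled by TMM and fitted with the quasi-likelihood test over all 15 libraries with no covariate, and p-values were adjusted by Benjamini-Hochberg over all tested genes. Calls required 1.5-fold or more at an adjusted p below 0.05. Standard errors were the log2 fold change divided by the square root of F, and 95% intervals were normal ones around it. RPKM used the union of exons in GENCODE M21 basic on GRCm38. Pair ratios were compared by exact two-sided permutation tests in scipy 1.17.1, adjusted over 12 tests. The procedure was tested on simulated data. With 5 libraries per group of 64.6 to 133 M (mega) counts, intervals describe the difference between groups and rest on the spread between libraries.

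All 10 members are described. Other genes of the pathway lists and regulators were named where they were called in any comparison and averaged 1 CPM or more, and otherwise only counted. For each member the gene closest in pattern is named, and 3 for the member with the widest range. Agpat1, which was not called, was named after its values were seen. The members and lists were chosen with earlier results of these data known. Alternatives were other scalings, DESeq2 1.42.0, other filters, no fold limit, only the groups compared, a replicate block, the run of library numbers as a covariate or the larger run of 11 libraries alone, and leaving out each library.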

Additional observations from a re-analysis of the deposited data

Results flagged for a closer look

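Of 42 groups of 5 libraries examined (10 genes and 4 pair ratios in 3 groups), 6 had 1 library whose gap to its nearest neighbour, as a share of the range of the group, was above Dixon's 95% critical value of 0.71, and chance flags about 1 in 20 groups. For Gpam, day 1 replicate 4 was highest at 86.4 CPM (share 0.733, next 80.3) and day 12 replicate 1 highest at 71.1 CPM (share 0.872, next 64.0). Lpin1 in the same day 12 replicate 1 was highest at 69.3 CPM (share 0.776, next 63.5). Lpin2 was lowest in day 0 replicate 1 at 34.5 CPM (share 0.724, next 35.1) and in day 12 replicate 2 at 25 CPM (share 0.726, next 26.4). The log2 ratio of Dgat1 to Dgat2 was lowest in day 1 replicate 1 at -1.78 (share 0.778, next -1.64).

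The effect of 12 days differed from that of 1 day, by the direct comparison of these groups in edgeR, by more than 1.5-fold for 4 members. The difference on the log2 scale was 0.74 for Agpat2, -0.98 for Lpin1, -0.63 for Lpin2 and -0.67 for Dgat2. By the adjusted p alone 2 members were higher and 6 lower. Over all genes 19.1% were called in this comparison, and by the adjusted p alone 34.3% were higher and 32.8% lower. With total counts Lpin2 (-0.46) and Dgat2 (-0.50) were under the fold limit, as with Hprt, Tbp and Ppia (-0.47 and -0.52). With the 4 qPCR reference genes Lpin2 and Dgat2 turned to 0.16 and 0.12, and Lpin1 was at -0.19 and not called. Agpat2 was at 0.92, 0.90 and 1.53 in these scalings.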

How the results depend on the processing

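Of 804 values of the members under another setting, 746 kept direction and side of the threshold. The same-numbered libraries did not vary together (correlation of deviations -0.0453 to 0.0768), so numbers were not taken to pair them. A replicate block left the members called at 2 higher and 1 lower at day 1, 2 and 3 at day 12 and 1 and 3 between them, and over all genes gave 1099 higher and 1912 lower at day 1. For the ratios a paired sign-flip test cannot go below p = 0.0625 in an exact permutation test.

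Scaling to Hprt, Tbp, Gapdh and B2m gave 5 members higher and 0 lower in both day 12 comparisons. Against day 0 the log2 fold changes were then 0.68 for Gpd1, 0.0541 for Pck1, 0.38 for Aqp7, 0.43 for Lpin2, 0.12 for Dgat2, 0.13 for Lpin3, 0.25 for Pparg, 0.41 for Ppara, 0.52 for Creb1, 0.15 for Nr1h3 and 0.11 for Foxo1. Gpam (0.86), Agpat3 (0.92) and Plpp1 (1.15) were newly called beside Gpd1, and Lpin1 (-0.32) lost its call. Against day 1 the log2 fold changes were 0.23 for Gpd1, 0.69 for Pck1, 0.48 for Gpam, 0.70 for Agpat3, 0.16 for Lpin2, 0.12 for Dgat2, 0.34 for Lpin3, 0.48 for Plpp1, 0.50 for Pparg and 0.29 for Foxo1. Pck1, Agpat3, Aqp7 (0.79), Dgat1 (0.89), Plpp2 (1.01), Creb1 (1.31) and Nr1h3 (0.79) were newly called there. Lpin1 (-0.19) and Ppargc1a (-0.23) were no longer called. Total counts left 1 member lower from day 1 to day 12 and turned Gpd1 at day 12 (0.0363) and, from day 1 to day 12, Pck1 (0.0701) and Agpat3 (0.0879). Scaling to Hprt, Tbp and Ppia was added after the data had been seen. It is the reference set of the study's qPCR time courses of adrenergic receptors and beige markers, while that of Scd1 used Hprt. Scaling to Hprt, Tbp and Ppia gave 1 higher at day 1 and 1 lower from day 1 to day 12 and turned Mogat1 at day 1 (-0.0272), and Pck1 (0.0513) and Agpat3 (0.0695) from day 1 to day 12. These shifts follow from the scalings themselves.

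A filter at a mean of 10 CPM gave 1 higher and 0 lower at day 1, since it removes Pck1, and Dgat1 was then at 0.56. Without a fold limit 6 were higher and 3 lower at day 1, 6 lower at day 12, and 2 higher and 6 lower between them. The larger run of library numbers gave 1 higher at day 1, -0.55 for Pck1 at day 12, 0.32 for Pck1 and -0.031 for Aqp7 from day 1 to day 12, and 0.87 for the log2 ratio of Pck1 to Gpd1 there. The cause was not tested. DESeq2 size factors in edgeR gave -0.00528 for Aqp7 and -0.00584 for Nr1h3 from day 1 to day 12, and DESeq2 itself -0.00399 and -0.00559.

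Leaving out 1 library gave 1 to 2 higher and 0 to 1 lower at day 1. The log2 ratio of Pck1 to Gpd1 ranged from -0.74 to -0.47 at day 12 against day 0 and from 0.38 to 0.63 against day 1. From day 1 to day 12 Aqp7 ranged from -0.045 to 0.0313, Nr1h3 from -0.0333 to 0.0464 and Pck1 from -0.18 to 0.0432, and Gpam at day 12 from -0.0117 to 0.0347.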
